A study of Mus musculus with 2 samples.

Results

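Transcripts annotated for nonsense-mediated decay (NMD) were followed through heart RNA. They were taken as every transcript whose GENCODE M21 biotype is nonsense_mediated_decay, whatever its level, which gave 7186 of 141767 mouse transcripts, in 4576 genes. The RNA came from the hearts of 2 untreated adult female mice of the F1 hybrid strain B6CASTF1/J, with a C57BL/6J and a CAST/EiJ parent, at 8 to 10 months of age. Both animals form 1 group; replicate 1 is animal 1 and replicate 2 animal 3 in the labels, which give both the same donor identifier. Since the smallest two-sided p of an exact sign-flip test over 2 animals is 0.5, no test was made; values with an error are means ± SD (n = 2). Each library was quantified in 2 deposited transcript tables, which share reads: the alignment-derived table held 42223410 and 40553236 expected counts, and estimated counts in the FASTQ-derived table came to 43782858 and 41468698. The cardiac troponin transcript Tnnc1-202 stood at 2417 and 2065 TPM (transcripts per 1000000) and the calcium pump transcript Atp2a2-202 at 3794 and 3210 TPM in the alignment-derived table.

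NMD is a surveillance pathway that degrades mRNA whose stop codon lies well upstream of an exon junction. A ribosome that stops there leaves an exon junction complex on the mRNA, and UPF1, UPF2, UPF3 proteins and the SMG proteins then lead to its decay. Splicing factor genes are known for poison exons, alternative exons with an early stop codon through which a splicing factor limits its own output. The biotype is assigned from a transcript's structure, not from a measurement of decay, and TPM is a level: neither synthesis nor decay rates were measured here.

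Of the 24 listed NMD and exon junction genes, 24 reached 1 TPM in both animals in each table. The share of all genes that did so was not counted, so this count has no background beside it. The helicase gene Upf1 stood at 16.9 ± 1.45 TPM, the adaptor genes Upf2 and Upf3b at 6.38 ± 0.764 and 2.58 ± 0.191, the kinase gene Smg1 at 10.2 ± 1.99, and the exon junction core gene Eif4a3 at 21.8 ± 0.912 TPM in the alignment-derived table.

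The following 6 stretches are printed to show what such a stop codon looks like. Each is the coding part of an exon that is absent from every protein_coding transcript of its gene, 5′ to 3′, with the stop codon that ends it in capitals (GENCODE M21 transcripts, mm10). Ndufs4 and Atp5f1 encode subunits of complex I and of ATP synthase, and the other genes encode splicing factors.
Ndufs4-204: tgcgttccagtctTAA
Atp5f1-203: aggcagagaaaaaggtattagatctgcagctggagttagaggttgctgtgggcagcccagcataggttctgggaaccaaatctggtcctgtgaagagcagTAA
Srsf3-201: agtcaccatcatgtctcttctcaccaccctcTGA
Srsf7-203: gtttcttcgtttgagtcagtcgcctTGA
Tra2b-206: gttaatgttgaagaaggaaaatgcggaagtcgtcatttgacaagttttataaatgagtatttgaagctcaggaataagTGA
Hnrnpl-213: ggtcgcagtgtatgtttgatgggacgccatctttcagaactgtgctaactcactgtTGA

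These stretches lie at chr13:114387442-114387457 (minus strand), chr3:105957934-105958036 (minus), chr17:29039454-29039487 (plus), chr17:80205054-80205081 (minus), chr16:22259181-22259261 (minus) and chr7:28817335-28817393 (plus), in the order printed. The exons are 50 bases long in Ndufs4-204, 167 in Atp5f1-203, 456 in Srsf3-201, 460 in Srsf7-203, 276 in Tra2b-206 and 70 in Hnrnpl-213. The stop codon is reached within 16 to 103 bases of the exon's start in all 6.

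The structure that defines the class was present in nearly all members. Of 7184 NMD transcripts with an annotated stop codon, 7150 (99.5%) had it 50 bases or more upstream of the last exon junction, against 330 of 47808 (0.690%) protein_coding transcripts. The distance was 334 bases in the median (quartiles 160 and 741), with 3 junctions after the stop. Median coding length was 303 bases against 1095 in protein_coding transcripts, and median transcript length 1255 against 1816. All 7184 annotated stops read TAA, TAG or TGA; TGA made up 57.9% of them, against 52.3% of the stops of protein_coding transcripts of the same genes. The annotation itself was less complete for these transcripts: 28.9% had the best transcript support level and 29.0% an incomplete start, against 49.0% and 7.94% of protein_coding transcripts.

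Most stop codons were not in an exon of their own. In 3232 members (45.0%) the exon with the stop is identical in a protein_coding transcript; whether it is translated there, or in which frame, was not examined. In 1784 (24.8%) it overlaps a coding transcript's exon but has other ends, and in 1435 it is absent from every protein_coding transcript. In 505 (7.03%) the stop is the one used by a protein_coding transcript, as in Lpl-203, whose coding length of 1422 bases equals that of the coding transcript Lpl-201 and which has 1 further junction 61 bases after the stop.

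NMD transcripts held a small and, between these animals, similar part of the RNA of coding genes. They took 0.884% and 0.773% of library TPM (0.828% ± 0.0787) in the alignment-derived table versus 0.944% ± 0.0758 in the FASTQ-derived one. Retained_intron transcripts took 2.11% ± 0.209 and processed_transcript ones, which have no annotated coding region, 2.42% ± 0.198 in the alignment-derived table. Of the TPM of nuclear genes with a protein_coding transcript alone, the NMD share was 2.33% and 2.31% (2.32% ± 0.0101) in the alignment-derived table versus 2.44% ± 0.00436 in the FASTQ-derived one. The class was concentrated: its highest member held 8.89% ± 0.0180 of its TPM, its 10 highest 28.7% ± 0.196 and its 100 highest 59.7% ± 0.374.

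At a threshold of 1 TPM in both animals, 737 NMD transcripts (10.3%) were expressed in the alignment-derived table, where 13.4% of all mouse transcripts were. The FASTQ-derived table gave 824 (11.5%), where 13.8% of all were. Protein_coding transcripts reached the threshold in 25.4% and 25.9%, retained_intron ones in 5.99% and 6.16%. The tables shared 511 expressed NMD transcripts, 69.3% of the alignment-derived list and 62.0% of the FASTQ-derived list. For protein_coding transcripts the shared part was 85.9% and 84.1%. No count was assigned in either library to 3216 members (44.8%) in the alignment-derived table. By counting error alone, a 0 leaves room for 0.0711 (replicate 1) or 0.0740 (replicate 2) counts per 1000000.

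The deposited credibility bounds, of a level not stated in the labels or headers, were wider for this class than for protein_coding transcripts, as they were for retained_intron and processed_transcript ones. Of the 737 expressed members, 444 (60.2%) had a lower bound of 1 TPM or more in both animals. The interval was in the median 0.753 and 0.745 of the TPM value wide, against 0.358 and 0.381 for expressed protein_coding, 0.722 and 0.782 for retained_intron and 0.771 and 0.822 for processed_transcript transcripts. Of the 737, 55 (7.46%) had 50% or more of their 31-base words in transcripts of another gene; this was not counted for other biotypes.

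Members whose stop-bearing exon is absent from coding transcripts were expressed least often among the 4 large structural classes. They reached 1 TPM in both animals in 6.76% and 9.20% (alignment-derived and FASTQ-derived). Members with the exon identical in a coding transcript did so in 11.7% and 13.3%, those with other exon ends in 9.70% and 9.59%, and those with a coding transcript's stop in 13.3% and 13.5%. By distance of the stop from the last junction, from the bin of 50 to 149 bases to that of 1200 bases or more, between 9.59% and 10.8% of members were expressed in the alignment-derived table versus 10.0% to 12.5% in the FASTQ-derived one. In genes of 5 TPM or more, the median share of the gene held by a member was 0.734% in the nearest bin and 1.43% in the farthest by the alignment-derived values, and 0.852% and 2.76% by the others. It rose from each bin to the next in the FASTQ-derived table but not in the alignment-derived one.

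**Figure D1:**
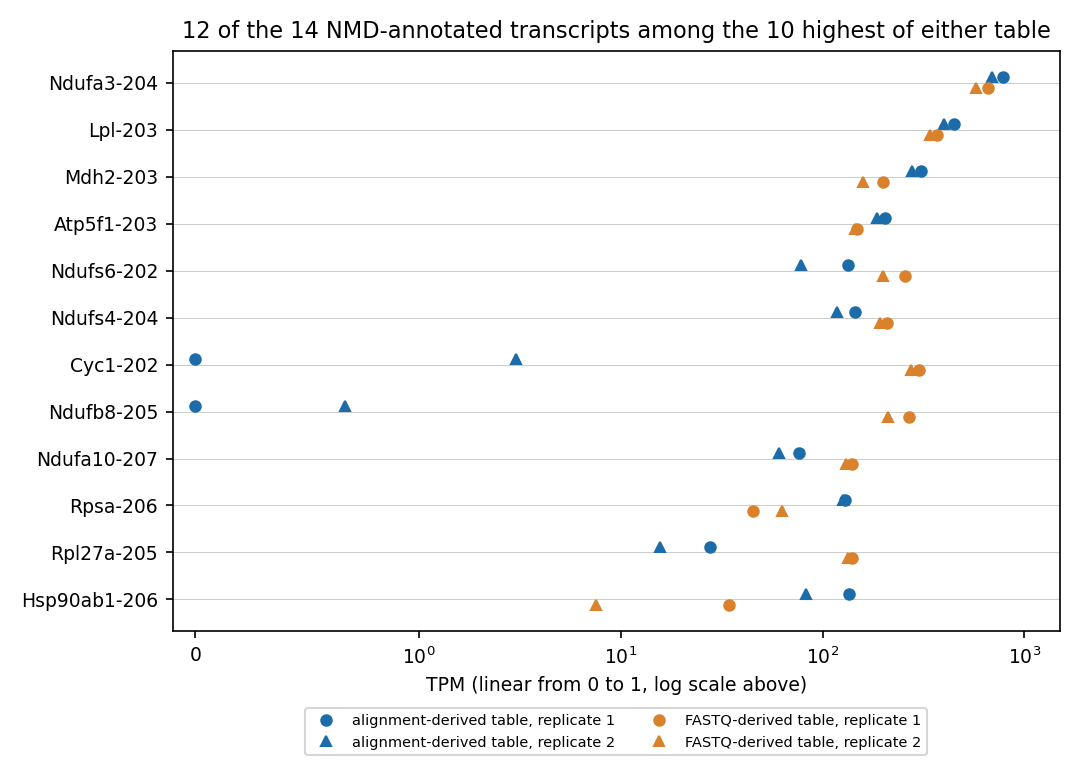
TPM (x axis, linear from 0 to 1 and logarithmic above) of 12 of the 14 NMD transcripts among the 10 highest of either table, with a point per animal and table. Ndufa3-204, Lpl-203, Mdh2-203 and Atp5f1-203 lie above 100 TPM in all 4 measurements, whereas Cyc1-202 and Ndufb8-205 are near 0 in the alignment-derived table and above 200 TPM in the FASTQ-derived one.

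The 5 members described first come from genes of energy metabolism. The highest was Ndufa3-204, from a gene for an accessory subunit of complex I, at 785 and 688 TPM in the alignment-derived table and 661 and 578 in the FASTQ-derived one. It held 93.4% ± 0.573 and 85.3% ± 0.635 of its gene's TPM. Ndufa3-204 is 343 bases long in 4 exons (chr7:3617391-3620163), its stop lies 56 bases before the last junction, its transcript support level is 5, the lowest, and each of its 31-base words also occurs in another transcript of the gene.

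Lpl-203 followed, from the gene for lipoprotein lipase, which releases fatty acids from circulating lipoproteins. It stood at 449 and 402 TPM in the alignment-derived table and 368 and 340 in the FASTQ-derived one, 30.0% ± 1.58 and 26.5% ± 1.52 of its gene. Unlike Ndufa3-204 it has 216 words of its own and the best support level, and the coding transcript Lpl-201 stood above it at 1100 and 887 TPM in the alignment-derived table.

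Mdh2-203 comes from the gene for mitochondrial malate dehydrogenase, an enzyme of the citric acid cycle. It lacks 1 exon of 169 bases of the coding transcript Mdh2-201 and stood at 307 and 276 TPM (alignment-derived) and 200 and 159 (FASTQ-derived). Its share was 42.6% ± 0.496 in the first table and 24.8% ± 1.82 in the other. All 4 values put it under Mdh2-201, which stood between 364 and 457 TPM.

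Atp5f1-203, with the 167-base exon printed above, stood at 203 and 187 TPM in the alignment-derived table, beside 203 and 188 TPM for the coding transcript Atp5f1-201. In the FASTQ-derived table it stood at 148 and 144 TPM, beside 246 and 228. Its share of the gene was therefore 49.3% ± 0.0996 or 37.9% ± 0.921, depending on the table. Of its 31-base words 35.5% occur in other genes' transcripts.

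Ndufs4-204 has the shortest of the printed stretches. It stood at 145 and 118 TPM (alignment-derived) and 210 and 193 (FASTQ-derived), 62.9% ± 5.08 and 92.0% ± 1.90 of the gene. The coding transcript Ndufs4-201 stood at 6.36 and 4.96 TPM and at 14.8 and 11.9 TPM. Ndufs4-204 carries the 50-base exon that Ndufs4-201 lacks, and at 686 bases it is shorter than the 1698 bases of Ndufs4-201. The coding region of Ndufs4-204 is annotated from its first base, an incomplete start, so the start codons could not be compared.

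The listed nuclear genes of the respiratory chain and ATP synthase numbered 92, of which 21 have an NMD transcript. Of their 25 NMD transcripts 9 were expressed in the alignment-derived table versus 11 in the FASTQ-derived one, 6 in both. They held 15.5% ± 0.246 and 18.4% ± 0.267 of the TPM of the whole class. The median share per gene was nevertheless 0.120% over the 20 genes of 5 TPM or more, against 2.49% over all 2056 genes with an NMD transcript at that level (each median taken over the animals' mean share), so a few members carried the sum.

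Of 84 ribosomal protein genes, 19 have NMD transcripts; 10 of 25 such transcripts were expressed in the alignment-derived table, 6 in the FASTQ-derived one and 6 in both. Rpsa-206 stood at 130 and 127 TPM in the first table and 45.2 and 63.2 in the other. Rpl27a-205 went the other way, with 27.7 and 15.6 against 140 and 133 TPM. In Rpsa-206 78.2% and in Rpl27a-205 48.6% of the words occur in other genes' transcripts, and the part of that likeness in their values was not tested.

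In the 3 lists of splicing genes, NMD transcripts held a larger part of summed TPM than in all nuclear coding genes, in both animals and both tables. The share of the list's summed TPM was 11.2% ± 0.324 for SR proteins and Tra2 in the alignment-derived table versus 9.89% ± 1.40 in the FASTQ-derived one. For hnRNPs and related proteins it was 9.98% ± 1.11 and 7.05% ± 0.0240, and for splicing kinases and other regulators 9.73% ± 0.392 and 9.77% ± 0.222. These values stand beside 2.32% and 2.44% for all nuclear coding genes. Most of those genes have no NMD transcript, whereas most genes of the 3 lists have one. The part of this in the lists' shares was not tested. No test of the difference was made.

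**Figure D2:**
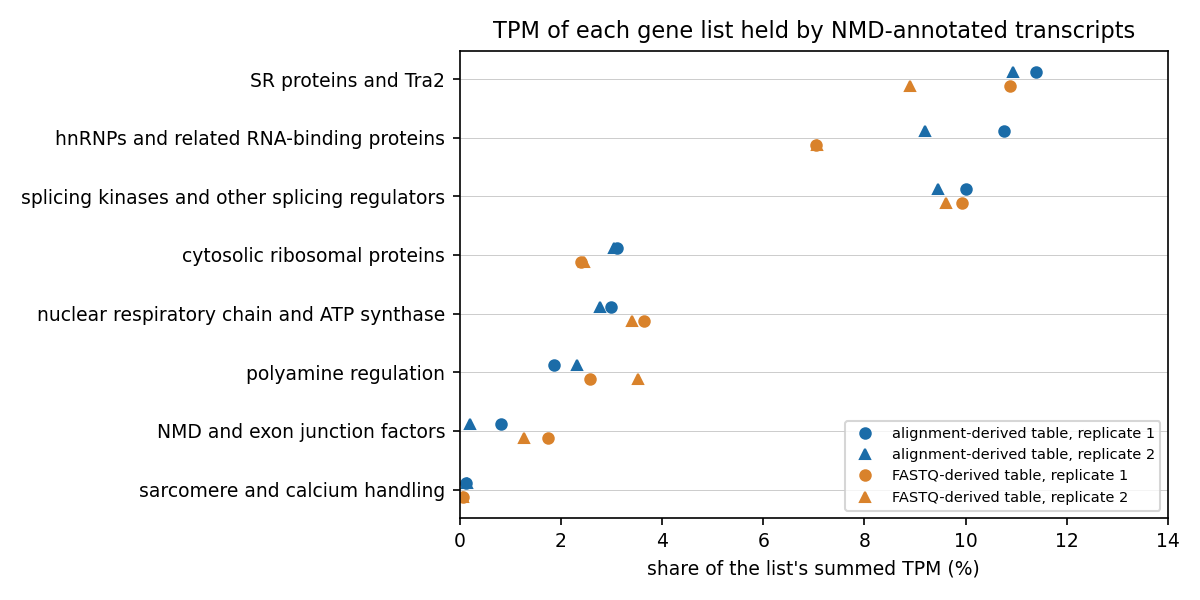
Share of each gene list's summed TPM held by NMD transcripts (x axis, percent), with a point per animal and table. The 3 lists of splicing genes lie between 7.04% and 11.4%, the ribosomal and respiratory lists between 2.39% and 3.64%, and the sarcomere list at 0.132% or less.

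Among SR proteins, which bind exonic enhancers, 11 of 13 genes have NMD transcripts, 19 in all, of which 5 were expressed in the alignment-derived table, 2 in the FASTQ-derived one and 2 in both. Per gene the median share was 8.58% and 9.35%, against 2.49% and 3.98% over all genes with an NMD transcript. A share of 10% or more in both animals was about as frequent as over all such genes. It was reached by 3 of 10 SR genes (30.0%) and 3 of 11 (27.3%), against 25.2% and 28.3%. Srsf6-201 was the highest, at 10.0 and 6.55 TPM (alignment-derived) and 11.9 and 8.24 (FASTQ-derived), 45.5% ± 7.70 and 54.7% ± 7.21 of its gene. It carries an exon of 268 bases that the coding transcript Srsf6-203, at 7.63 and 8.42 TPM in the alignment-derived table, lacks.

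Srsf3-201, with the 456-base exon, stood at 2.74 and 2.52 TPM and at 4.37 and 3.93 TPM, 14.9% ± 1.03 and 21.5% ± 3.31 of its gene. The animals' shares in the 2 tables did not overlap. Of the words of Srsf3-201, 36.8% occur in other genes' transcripts. Srsf7-203 stayed under 1 TPM in both animals and tables (0.300 to 0.497 TPM), 2.58% ± 0.754 and 3.99% ± 1.15 of its gene. Tra2a-202, with an added exon of 306 bases, was also under 1 TPM, between 0.329 and 0.890.

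Srsf1-204, Tra2b-206 and Srsf2-204 had the higher values in the alignment-derived table. Srsf1-204 stood at 1.82 and 1.64 TPM there; the FASTQ-derived table put it near 0 in replicate 1 and at 0.772 TPM in replicate 2. Tra2b-206, whose gene encodes a splicing activator, stood at 2.94 and 2.63 TPM in the alignment-derived table and at 0.966 and 1.06 in the FASTQ-derived one, or 26.4% ± 2.60 and 9.45% ± 3.12 of its gene. Of the words of Tra2b-206, 40.9% occur in other genes' transcripts. Srsf2-204 stood at 2.18 and 4.32 TPM and was listed at 0 in the FASTQ-derived table. Srsf3-206 and Tra2b-209 were listed at 0 in both animals and both tables.

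The hnRNPs coat nascent RNA and often repress exons. Of 26 such genes 14 have NMD transcripts, 28 in all. Of these, 11 (39.3%) were expressed in the alignment-derived table, 13 in the FASTQ-derived one and 10 in both. The median share per gene was 12.8% (alignment-derived) and 16.8% (FASTQ-derived), against 2.49% and 3.98% over all genes with an NMD transcript. Unlike in SR genes, a share of 10% or more in both animals was more frequent than over all such genes. It was reached by 7 of 13 hnRNP genes (53.8%) and 9 of 14 (64.3%), against 25.2% and 28.3%. Hnrnpu-206 stood at 33.9 and 28.5 TPM and at 29.0 and 25.2 TPM, 58.1% ± 3.80 and 56.2% ± 1.00 of its gene, above the coding transcript Hnrnpu-201 at 8.73 and 7.39 TPM in the alignment-derived table. Its coding length of 2379 bases is close to the 2400 of Hnrnpu-201, which is 7640 bases long against 2844.

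Hnrnpl-213, with the 70-base exon, stood at 2.51 and 1.89 TPM and at 4.54 and 3.25 TPM, 3.22% ± 0.248 and 5.46% ± 0.723 of its gene. Hnrnpa1-203 stood at 19.6 and 15.4 TPM in the alignment-derived table and 3.37 and 3.34 in the FASTQ-derived one, and 74.5% of its words occur in other genes' transcripts. Of the Ptbp1 members, Ptbp1-201 reached 1.03 and 1.34 TPM in the alignment-derived table. It has 0 words of its own, and its lower credibility bounds there were 0.0842 and 0.000341 TPM. Ptbp1-212 stood at 0.86 and 1.34 TPM in that table, whereas Ptbp1-207 was listed at 0 throughout.

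Among the other splicing regulators, 21 of 30 genes have 58 NMD transcripts, of which 13 and 15 were expressed and 12 in both tables. The median share per gene was 5.96% (alignment-derived) and 5.55% (FASTQ-derived), against 2.49% and 3.98% over all genes with an NMD transcript. A share of 10% or more in both animals was reached by 7 of 20 genes (35.0%) and 9 of 21 (42.9%). Over all such genes it was 25.2% and 28.3%. Rbm20, a cardiac splicing repressor known for its action on titin, had the highest of these NMD transcripts. Rbm20-201 stood at 31.6 and 28.7 TPM (alignment-derived) and 29.2 and 27.0 (FASTQ-derived). That was 32.3% ± 1.84 and 31.7% ± 1.93 of the gene, close to the coding transcript Rbm20-203 at 35.0 and 33.0 TPM in the alignment-derived table. Rbm20-201 has 7 exons against 14, and 1783 words that no other transcript of the gene has. The coding region of Rbm20-201 is annotated from its first base, an incomplete start.

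Clk1 encodes a kinase that phosphorylates SR proteins. Clk1-210 lacks 1 exon of 91 bases and stood at 6.55 and 4.32 TPM and at 6.52 and 4.45 TPM, 38.4% ± 0.798 and 42.6% ± 5.42 of the gene. The coding transcript Clk1-201 stood lower, at 2.74 and 2.26 TPM in the alignment-derived table. Clk1-210 has 0 words of its own, however, and its credibility bounds there were 3.88 to 7.74 and 2.45 to 5.53 TPM. Clk4 members stayed at or under 1.00 TPM in all 4 measurements. Tardbp and Qk encode RNA-binding proteins that regulate splicing, and Ddx5 an RNA helicase. Tardbp-228 held 22.4% ± 0.749 and 20.5% ± 1.60 of its gene, Ddx5-208 19.4% ± 5.51 and 19.5% ± 5.65, and Qk-202 8.64% ± 0.226 and 10.2% ± 0.251. Of the words of Ddx5-208, 33.4% occur in other genes' transcripts.

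Sarcomere and calcium handling genes stood at the low end. Only 7 of 36 have NMD transcripts, 9 in all, which held 0.126% ± 0.00816 and 0.0587% ± 0.00196 of the list's TPM. Atp2a2-203 stood at 28.5 and 29.0 TPM, above most members of the class, yet was 0.633% ± 0.0784 of its gene in the alignment-derived table. Tnnc1-203 stood at 10.1 and 12.4 TPM, 0.508% ± 0.128 of its gene. Nexn-204, from the gene for the actin-binding protein nexilin, stood at 18.8 and 12.2 TPM in the FASTQ-derived table and was listed at 0 in the alignment-derived one.

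Polyamine genes have 6 NMD transcripts in 4 of 8 genes, 2 of them expressed in both tables, as were 511 of all 7186 NMD transcripts (7.11%). Sms-204, from the spermine synthase gene, held 32.3% ± 3.92 and 31.8% ± 6.53 of its gene, and Odc1-205, from the ornithine decarboxylase gene, 9.38% ± 0.340 and 6.29% ± 0.752. In Sms-204 61.5% and in Odc1-205 44.3% of the words occur in other genes' transcripts. Of the NMD and exon junction genes 5 of 24 have NMD transcripts, 8 in all. None of these reached 1 TPM in both animals in the alignment-derived table, and 1, Smg1-204, did in the FASTQ-derived one at 2.28 and 2.20 TPM. Over all NMD transcripts 10.3% and 11.5% did. None of 14 genes of the amino acid and unfolded protein stress responses has one.

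Per gene, the NMD share was small in the median with a long tail. Over 2056 genes of 5 TPM or more in both animals that have both kinds of transcript, the median, taken in each animal and then averaged, was 2.13% ± 0.0789 in the alignment-derived table, and over 2090 genes it was 3.48% ± 0.210 in the FASTQ-derived one. The share was 10% or more in both animals in 519 genes (25.2%) and 591 (28.3%), and 50% or more in 70 and 76. In both tables at once, 383 of 2010 genes passed 10% and 48 passed 50%. Retained_intron transcripts had medians of 3.15% and 3.50%.

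**Figure D3:**
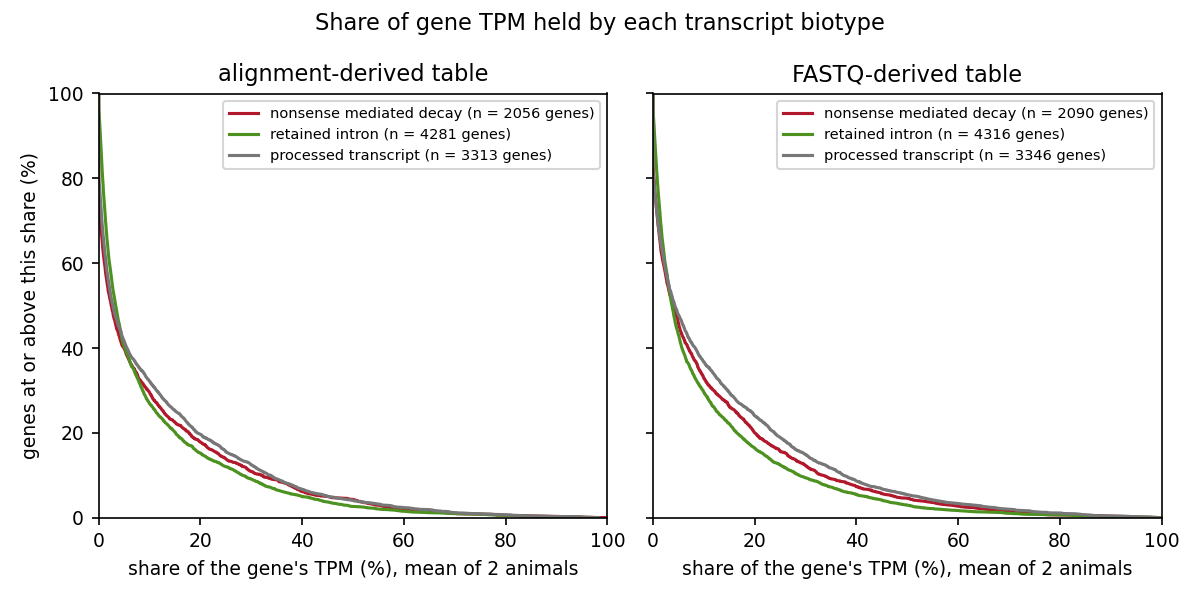
Percent of genes (y axis) whose summed transcripts of a biotype hold at least a given share of gene TPM (x axis, mean of 2 animals), for NMD, retained_intron and processed_transcript in each table. At a share of 1% retained_intron lies highest, at 75.9% (alignment-derived) and 77.1% (FASTQ-derived) of genes against 61.3% and 68.9% for NMD, and at 10% the curves lie between 26.9% and 36.7% of genes.

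The highest transcript of the gene was an NMD transcript in 99 genes in the alignment-derived table, 124 in the FASTQ-derived one and 67 in both. That is 4.82% and 5.93% of the genes with such a transcript at 5 TPM or more. Retained_intron transcripts led 2.87% and 3.25% of their genes, and processed_transcript ones 4.91% and 5.98%, so this was not particular to NMD transcripts. Of these 67, 49 (73.1%) are shorter than their gene's highest protein_coding transcript and 62 (92.5%) have a shorter coding region. Over all 3309 NMD transcripts of genes at that level the numbers were 81.1% and 94.0%. In 35 of the 67 the exon with the stop is identical in a coding transcript, and in 11 it is absent from all of them.

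Mnat1-203, from a gene for an assembly factor of the CDK-activating kinase, had the largest share by the lower of the 2 tables. It stood at 6.43 and 6.03 TPM and at 6.36 and 6.21 TPM, 96.5% ± 0.470 and 96.3% ± 0.957 of the gene. The highest coding transcript, Mnat1-202, was under 0.172 TPM in each animal and table. Mnat1-202 is 3688 bases long and Mnat1-203 1294.

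Mmaa-202, whose gene acts in mitochondrial cobalamin metabolism, had 16.8 and 15.3 TPM and 16.2 and 15.6 TPM. It held 92.9% ± 0.137 and 93.4% ± 0.235 of its gene, carries 2 added exons of 373 bases, and has 401 words of its own. Slc25a12-207, from the gene for the mitochondrial aspartate and glutamate carrier of the heart, stood at 64.4 and 57.4 TPM and at 54.9 and 50.4 TPM. It lacks 1 exon of 116 bases, which leaves 13 junctions after the stop, and held 68.2% ± 1.69 and 68.8% ± 1.73 of the gene.

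Others of high share were Nkiras1-201 (84.1% ± 2.74 and 82.9% ± 4.79), Dirc2-202 (74.0% ± 0.0221 and 76.1% ± 0.315) and Cbx1-204 (73.2% ± 1.42 and 76.8% ± 0.954). Cbx1 encodes a heterochromatin protein, and Cbx1-204 has 1411 words of its own. Mrps14-201, from a mitochondrial ribosome gene, held 95.1% ± 1.92 in the alignment-derived table versus 76.4% ± 3.27 in the FASTQ-derived one. Ppia-201 held 79.5% ± 0.355 and 83.7% ± 2.57, but 64.2% of its words occur in other genes' transcripts. Pnpla2-201, chosen after its values were seen, comes from the gene for adipose triglyceride lipase and held 62.2% ± 0.321 and 43.6% ± 0.173. It has 0 words of its own.

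**Figure D4:**
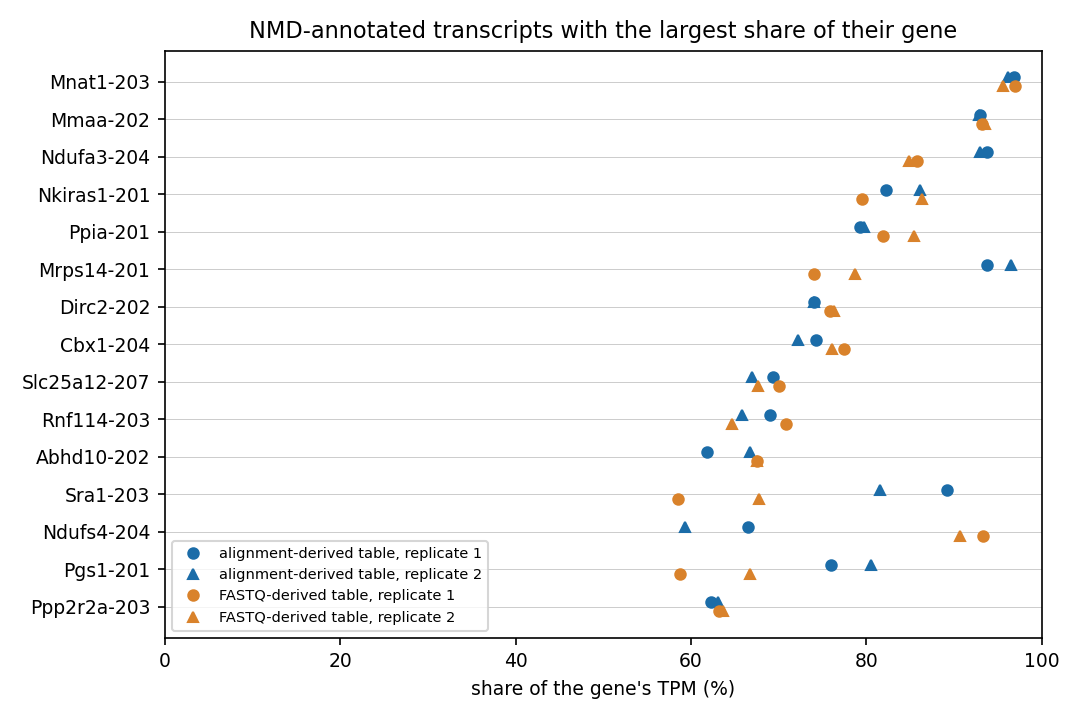
Share of gene TPM (x axis, percent) of the 15 NMD transcripts with the largest share by the lower of the 2 tables, with a point per animal and table. Mnat1-203 and Mmaa-202 lie above 92% in all 4 measurements, while Mrps14-201, Sra1-203, Ndufs4-204 and Pgs1-201 differ between tables by more than between animals.

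The tables were apart more often for these transcripts than for coding ones. Among 1012 members with a mean of 1 TPM or more over both tables, 343 (33.9%) were 2-fold or more apart between the tables in both animals, on the TPM + 0.1 scale, where 24.4% of all mouse transcripts and 18.2% of protein_coding ones were. The share was 43.0% for retained_intron and 47.2% for processed_transcript. Of the 343, 200 were higher in the FASTQ-derived table and 143 lower. The tables share reads, so this compares quantification and not animals.

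Cyc1-202 and Ndufb8-205 show how far this went at high levels. Cyc1 encodes cytochrome c1 of complex III, and Cyc1-202 stood at 300 and 276 TPM in the FASTQ-derived table and at 0 and 3.02 in the alignment-derived one. The coding transcript Cyc1-201 stood at 188 and 171 TPM where Cyc1-202 was high and at 313 and 289 where it was low. Ndufb8-205, from another complex I gene, stood at 267 and 212 TPM against 0 and 0.670. Cyc1-202 has 23 words of its own and Ndufb8-205 has 0.

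Ranked by the smaller of the 2 animals' ratios, the largest in the same direction belonged to Ndufa3-203, Lgals1-202, Tbca-203, Skp1a-204 and Ndufb8-205. Lgals1-202, from the galectin-1 gene, stood at 58.8 and 62.7 TPM in the FASTQ-derived table and was listed at 0 in the alignment-derived one, although it has 133 words of its own. The opposite direction was led by Gm42417-202, Rab11b-204, Pmpcb-204, Hspa5-204 and Slc4a3-204, each listed at 0 in the FASTQ-derived table. Rab11b-204, from a gene of vesicle recycling, stood at 37.0 and 36.5 TPM in the alignment-derived table. Members with words of their own were not apart less often: 25.6% of compared members with 0 such words were 2-fold apart, and 34.0% of those with 60 or more.

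**Figure D5:**
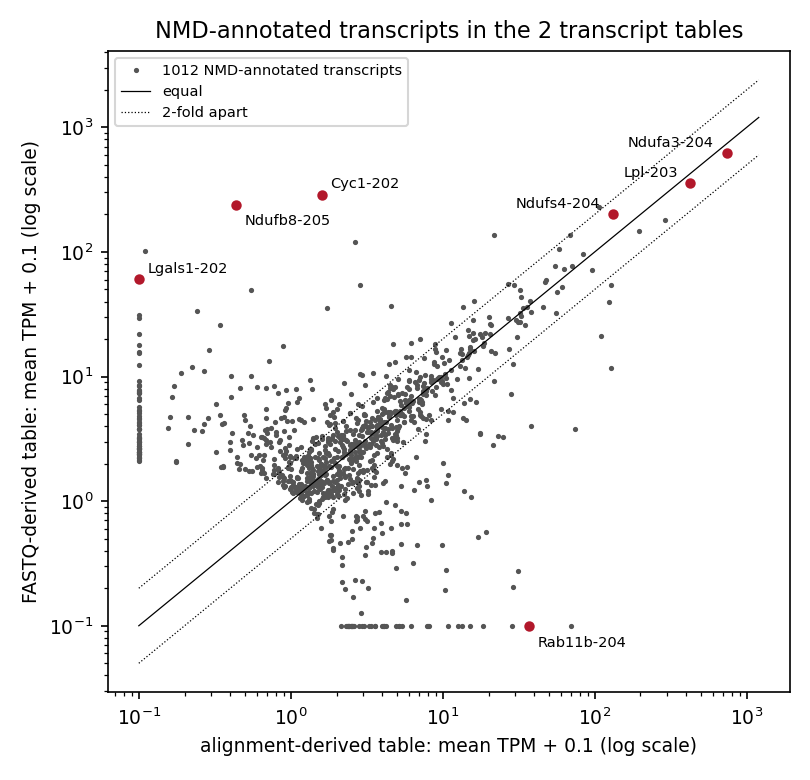
Mean TPM + 0.1 over both animals in the FASTQ-derived table (y axis, logarithmic) against the alignment-derived one (x axis, logarithmic) for the 1012 compared NMD transcripts; lines mark equality and 2-fold. Ndufa3-204, Lpl-203 and Ndufs4-204 lie within 2-fold, and the columns of points at the left and bottom edges are transcripts listed at or near 0 in 1 table.

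Between the animals, log2 ratios were centred on the median transcript, which lay at -0.19 (replicate 2 over replicate 1) by the alignment-derived values and at -0.16 by the others. By the alignment-derived values, 132 of 905 compared members (14.6%) were 2-fold or more apart, where 10.3% of all mouse transcripts were; 59 were higher and 73 lower in replicate 2. Without centring the split was 48 higher and 88 lower. The FASTQ-derived table gave 196 of 1030 (19.0%), where 11.7% of all were. In the alignment-derived and FASTQ-derived tables, 8.52% and 9.37% of protein_coding transcripts were 2-fold or more apart. Retained_intron ones were so in 17.2% and 21.2%, and processed_transcript ones in 19.4% and 21.9%, both above the NMD transcripts. Only 37 of 656 (5.64%) were apart in the same direction in both tables, where 2.96% of all were. In such bulk RNA fewer cells of a type and less RNA per cell cannot be told apart.

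Most of the members farthest apart in the same direction in both tables were at low levels. Ilk-203, from the integrin-linked kinase gene, stood at 4.20 TPM in replicate 1 and was listed at 0 in replicate 2 in the alignment-derived table, and at 6.21 and 0 in the FASTQ-derived one. Agtpbp1-215 stood at 3.69 and 0 and at 6.86 and 1.42 TPM. Higher values occurred for Dlst-209, from a gene of the 2-oxoglutarate dehydrogenase complex, with 16.9 and 39.3 TPM in the alignment-derived table. In the FASTQ-derived table it stood near 0 in replicate 1 and at 14.2 TPM in replicate 2. Ywhae-203, from a 14-3-3 gene, was lower in replicate 2 in both tables, at 35.7 and 10.5 and at 6.47 and 0 TPM. Some members of high level held it between animals. In the FASTQ-derived table the centred log2 ratio was -0.04 for Ndufa3-204, 0.04 for Lpl-203 and 0.05 for Rbm20-201. Others did not: Hsp90ab1-206, among the 10 highest of the alignment-derived table, stood at 135 and 83.0 TPM there. In the FASTQ-derived table Hsp90ab1-206 stood at 34.3 and 7.54 TPM.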

How the data were processed

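Total RNA sequencing libraries of 2 hearts were made, per the labels' protocols, with a directional kit, using 300 ng RNA per library and ERCC spike-ins. Deposited description files name mm10 and GENCODE M21. The quantifying tools are not named in the labels or headers used. Per the file headers, the alignment-derived transcript table holds expected counts, TPM, posterior mean TPM, credibility bounds (a signal on the TPM scale) and the isoform percent of the gene, while estimated counts and TPM make up the deposited FASTQ-derived table. Gene tables were not used. The reference is C57BL/6J, so CAST/EiJ reads may be assigned less well.

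The biotype, exons, coding regions and sequences came from GENCODE M21. Shares of a gene were computed from TPM; they differed from the deposited isoform percent by at most 0.49 percentage points. Thresholds were 1 TPM for a transcript and 5 TPM for a gene, in both animals. Ratios used log2(TPM + 0.1), which understates differences of low transcripts, for transcripts averaging at least 1 TPM and, between animals, holding at least 20 counts over both libraries. Words are 31-base stretches counted in all annotated transcripts; a transcript's own words occur in no other transcript of its gene. The comparison of animals was tested on simulated Poisson counts of 21533 transcripts: of 50 changed 3-fold 50 were found, and 53 of 21333 unchanged ones passed. These counts held neither variance between animals nor error in assigning reads to transcripts. The simulation therefore gives no rate of false calls for the real data. Floors cover counting error only: without molecular identifiers, reads are not independent molecules. The members and lists were chosen with earlier results of these data known. Named are the 10 highest members of each table, the 15 largest shares, the 4 highest of each list (with all members of Srsf1 to Srsf7, Tra2a, Tra2b, Hnrnpl, Ptbp1, Clk1 and Clk4), and the 5 largest ratios in each direction. Members falling under the rule that are not named are not reported here. Python 3.11.15, pandas 2.3.3, numpy 2.4.6 and matplotlib 3.10.9 were used.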

Additional observations from a re-analysis of the deposited data

How the results depend on the processing

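Of 37 alternatives, 3 of them chosen after seeing the data, 24 stayed within the spread of the animals or within 1.5 times the count, and 13 did not. The cause was not tested where none follows from the alternative itself. The NMD share of library TPM was 0.828%, 0.944% in the FASTQ-derived table, 0.919% of expected counts and 2.32% of nuclear coding genes' TPM; leaving out each animal gave 0.773% to 0.884%. The expressed count of 737 fell to 213 at 5 TPM, and was 910 and 984 in either animal alone. The median share per gene was 2.13%, against 3.48% in the FASTQ-derived table, 2.56% for genes of 1 TPM or more, 1.96% for genes above 0 TPM and 1.16% of expected counts; leaving out each animal gave 2.10% to 2.24%. Genes led by an NMD transcript rose from 99 to 164 when genes of 1 TPM entered, and lay between 139 and 143 in either animal alone. Members 2-fold apart between tables fell from 343 to 80 at a mean of 5 TPM, and lay between 400 and 468 in either animal alone. Those apart between animals fell from 132 to 80 with a pseudocount of 1 and to 10 at a mean of 5 TPM. No paired analysis was possible because both animals form 1 group. By counting error alone, a count of 0 allows 0.0711 or 0.0740 counts per 1000000 in the 2 libraries of the alignment-derived table.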

Other observations

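The exon that holds the stop codon was internal in 6966 of 7184 members, and its length was a multiple of 3 in 2475 of these (35.5%). Where the exon is absent from every protein_coding transcript, 510 of 1417 (36.0%) had such a length, and the median length was 117 bases.

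These values have limits. The biotype is an annotation, and no sample with the decay pathway blocked was analysed here. Levels of 2 animals in 1 tissue and 1 sex give no test. Neither allele of the hybrid was measured apart. Transcript TPM were estimated from short reads, and members of the class differ between the tables more often than protein_coding transcripts.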
